A study of Mus musculus with 2 samples.

Results

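The genes of the constitutive proteasome and its regulators were followed in mouse mammary basal cells grown with or without TNF-α. They were taken by name from the deposited count table as every gene of the series Psma to Psmg followed by a number, without the immunoproteasome subunits Psmb8, Psmb9 and Psmb10 and without pseudogene or antisense entries, which gave 47 of 49492 genes. The name pattern also takes Psmc3ip, which encodes a partner of the recombinases of meiosis and is no proteasome subunit, so that it is described apart. Basal cells, the outer layer of the mammary epithelium, were sorted by FACS from glands of adult female wild-type mice and embedded in matrix gel for 10 days. 1 library came from cultures without TNF-α (control) and 1 from cultures with recombinant mouse TNF-α at 10 ng/mL, an inflammatory cytokine that macrophages release. Both cultures received EGF and an insulin, transferrin and selenium supplement according to the study's methods. With 1 library per condition the differences have no replicate check, and differences between single cultures cannot be told apart from the treatment. The number of mice behind each library is not given in the sources used here.

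Library totals were 44462275 counts (control) and 53487087 counts (TNF-α). Basal markers were high in both, with 229766 and 259922 counts of the keratin gene Krt14, and the luminal keratin gene Krt8 was present too at 54056 and 60420 counts. Transcripts of both cell types were thus present, and bulk counts cannot show whether they came from separate cells. In the paper's FACS of cultured colonies, not of these libraries, most cells of control colonies were luminal. The paper also reports a larger share of basal cells with TNF-α. The 10 leukocyte markers summed to 8.77 CPM (counts scaled to the size of the library) in the control and 7.10 CPM with TNF-α, and of these Cd3e was at 0 in both libraries and the macrophage gene Adgre1 had 0 and 2 counts. The fibroblast markers Col1a1 and Pdgfra were found at 5062 and 6351 and at 2133 and 2519 counts, and the 5 markers of that type summed to 498 and 485 CPM. Of these 5, 1 passed 1.5-fold upward, Dcn with 184 and 582 counts (log2 ratio 1.39), and 1 passed it downward, Col3a1 with 5628 and 4250 counts (-0.66). The 5 basal markers summed to 9303 and 9281 CPM and the 3 endothelial markers to 6.57 and 6.24 CPM. Of the 6 luminal markers 5 were lower with TNF-α, 2 of them past 1.5-fold, and their sum was 3806 CPM in the control and 3294 CPM with TNF-α. The part of these differences in the ratios of the proteasome genes was not tested. In such bulk samples, fewer cells of a type and less RNA per cell cannot be told apart.

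The proteasome is the protease that degrades proteins tagged with ubiquitin in every nucleated cell. Its 20S core is a barrel in which outer rings of α subunits guard the entry and inner rings of β subunits hold the proteolytic sites. The 19S cap recognises the ubiquitin tag, removes it and unfolds the substrate with a ring of ATPases, and core and cap together form the 26S proteasome. PA28, built from the products of Psme1 and Psme2, is an alternative cap that opens the core without ATP or ubiquitin. It is best known from cells exposed to interferon, in which the immunoproteasome subunits replace the catalytic β subunits and favour peptides for presentation on MHC class I. Dedicated chaperones, among them the products of the Psmg genes, guide the assembly of the core and of the cap.

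The question put to the data was whether the genes of PA28 differed from those of core and cap in their response to TNF-α. Values are log2 ratios of CPM, TNF-α over control, after TMM scaling and with a prior count of 2, and each interval is the 95% Clopper-Pearson interval for counting error only, which leaves out the spread between cultures. Of the 47 genes, 45 reached 10 counts summed over both libraries. The exceptions were Psma8, the α subunit of the testis, which had 0 counts in both libraries (at most 0.0673 and 0.0562 CPM, the worth of 3 counts), and Psmb11, the β subunit of thymic epithelium, which had 2 counts in the control and 1 with TNF-α.

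Most proteasome genes were slightly higher with TNF-α. Without Psmc3ip, 35 of 44 genes had a log2 ratio above 0 and 9 below it (36 of 45 with it), against 50.6% above 0 among all 20771 genes with at least 10 counts. The median was 0.20, against 0.0038 over all genes with that count. Large differences were few. A ratio of 1.5-fold was passed upward by 4 of the 44 genes (9.09%), where 15.5% of all genes passed it, and downward by 0, where 13.7% of all genes passed it. The 4 genes were Psme2, Psme2b, Psmd10 and Psmg1, and 2 of them, Psme2b and Psmg1, also passed 2-fold, against a share of 8.56% of all genes upward, while 0 passed 2-fold downward, against 6.62%. Because proteasome genes are well counted, the same was read for genes with at least 1000 counts. Here, again without Psmc3ip, 33 of 40 members were above 0 against 50% of 9345 genes, 3 members passed 1.5-fold upward against 6.88%, and 0 passed it downward against 5.67%. The shift of these genes was therefore small and broad, and the share with a large difference was close to or under the background.

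**Figure D1:**
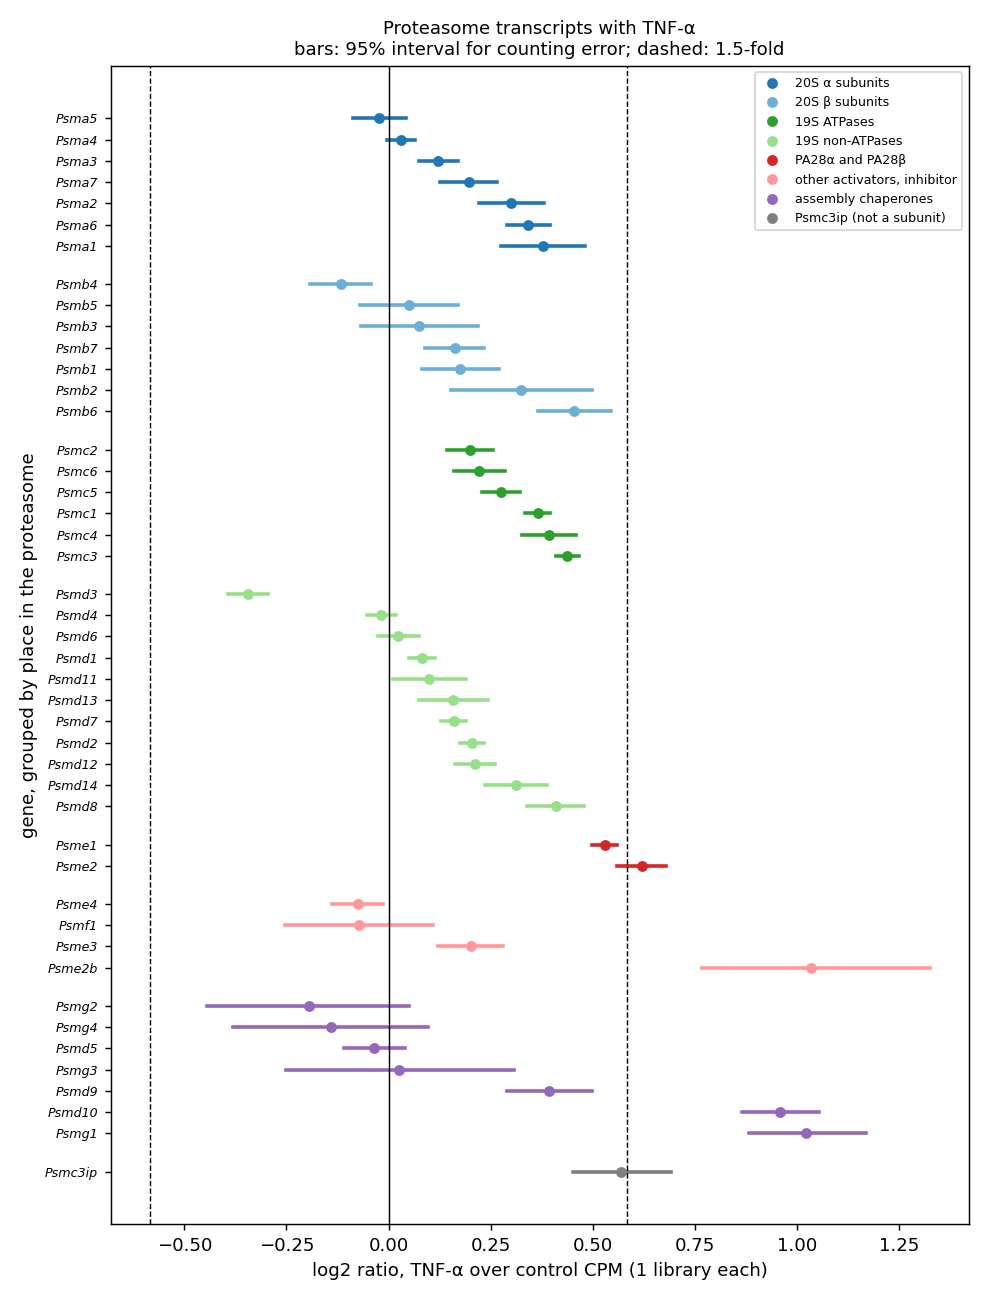
Log2 ratio of TNF-α over control CPM for the 44 proteasome genes with at least 10 counts, by group, and for Psmc3ip, with 1 library per condition. Points are the ratios, bars the 95% intervals for counting error and dashed lines 1.5-fold; 35 of the 44 proteasome points lie right of 0, and Psme2, Psme2b, Psmd10 and Psmg1 lie right of the upper dashed line.

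Among the 20S core genes, 12 of 14 were higher with TNF-α, and 0 passed 1.5-fold. Their median stood at 0.17 on the log2 scale. The 7 α subunit genes with counts ranged from -0.02 for Psma5 to 0.38 for Psma1. Psma5 had 3549 counts in the control and 4182 with TNF-α, and its interval from -0.09 to 0.04 included 0. Psma1 had 1266 and 1970 counts, with an interval from 0.28 to 0.48. Between them lay Psma4, the α gene with the most counts (12468 and 15246, log2 ratio 0.03), and Psma6 at 0.34 (4896 and 7433 counts). Genes of one ring, whose products enter the particle in equal number, thus differed in their ratios by more than these counting intervals. Intervals from halved counts were not computed for the α genes. Psma4 shares 31.5% of the 50-base windows of its main transcript with other genes. Its exons also overlap the opposite-strand gene AY074887 over 114 bases, so its ratio is uncertain.

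The 7 β subunit genes ranged from -0.12 for Psmb4 (2815 and 3107 counts, interval -0.19 to -0.04) to 0.46 for Psmb6 (1642 and 2696 counts, interval 0.37 to 0.54). The catalytic subunits are Psmb5, which cleaves after hydrophobic residues, Psmb6, which cleaves after acidic ones, and Psmb7, which cleaves after basic ones. Psmb5 was counted 1022 times in the control and 1266 times with TNF-α, which gave 0.05 (interval -0.07 to 0.17). Psmb7 had 2764 and 3702 counts, a ratio of 0.16 (interval 0.09 to 0.23). Psmb6 exceeded Psmb5 by 0.41 on the log2 scale (95% interval 0.26 to 0.55) and Psmb7 by 0.29 (0.18 to 0.41). As counted, the catalytic genes did not share one ratio. The structural subunits Psmb1, Psmb2 and Psmb3 had ratios of 0.18, 0.32 and 0.08. Psmb5 and Psmb3 share 57.1% and 55.8% of the 50-base windows of their main transcript with other genes. Psma5 shares 55.4% and Psmb7 shares 28.1%, against 2.67% for Psmb6. The counts of Psmb5, Psmb3, Psma5 and Psmb7 are uncertain to that extent, and so are the differences between the catalytic genes.

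For the core, the immunoproteasome counterparts showed a different size of response. Psmb8, which replaces Psmb5, had 610 and 3142 counts, and its log2 ratio of 2.10 exceeded that of Psmb5 by 2.06 (95% interval 1.88 to 2.23). Psmb9 exceeded Psmb6 by 1.40 (1.10 to 1.69) and Psmb10 exceeded Psmb7 by 1.39 (1.18 to 1.61), with 125 and 541 counts of Psmb9 and 255 and 898 of Psmb10. Per length, in TPM (a level scaled to gene length and to the library), Psmb8 stood at 0.19 of Psmb5 in the control and 0.79 with TNF-α. The shares were 0.039 and 0.10 for Psmb9 over Psmb6, and 0.19 and 0.49 for Psmb10 over Psmb7. On the deposited exon lengths, the constitutive transcript of each pair had the higher TPM in both libraries. For Psmb8 and Psmb5 this rested on length, since Psmb8 had more counts with TNF-α (3142 against 1266). Main transcript lengths were not applied to these pairs, so which of the 2 stood higher with TNF-α is uncertain. The exons of Psmb7 overlap other genes over 405 bases and those of Psmb5 over 109 bases.

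All 6 ATPase genes of the 19S cap were higher with TNF-α, and none of them passed 1.5-fold. They form the ring that unfolds substrates and threads them into the core. The lowest was Psmc2 at 0.20 (4320 and 5936 counts, interval 0.14 to 0.26) and the highest Psmc3 at 0.44 (16523 and 26785 counts, interval 0.41 to 0.47), whose exons overlap those of the opposite-strand gene Slc39a13 over 215 bases. Psmc1, the member with the highest TPM on deposited lengths, had 13933 and 21486 counts and a ratio of 0.37. Their median was 0.32.

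The 11 non-ATPase genes of the cap spread more widely, from -0.34 to 0.41 with a median of 0.16, and 9 were higher with TNF-α. Psmd3, a scaffold subunit of the lid, was the lowest of all 45 genes. It had 7021 counts in the control and 6624 with TNF-α, a log2 ratio of -0.34 (interval -0.39 to -0.30), or 0.788 times the control level. Psmd8, another lid subunit, was the highest with 2721 and 4327 counts, a ratio of 0.41 (interval 0.34 to 0.48). The ratio of Psmd14, the deubiquitinase that removes the tag, was 0.31, and that of the ubiquitin receptor Psmd4 was -0.02 (interval -0.05 to 0.02). In summed counts, the ATPase genes exceeded the non-ATPase genes by 0.25 on the log2 scale (95% interval for counting error 0.23 to 0.28) and the 20S genes by 0.22 (0.19 to 0.24). Such sums weigh the genes with the most counts most, and their intervals leave out the spread between genes of a group. Single genes of the groups overlapped, as Psmd8 at 0.41 shows.

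Psme1 and Psme2, which encode PA28α and PA28β, had larger ratios than each of the 31 core and cap genes. Psme1 had 13619 counts in the control and 23539 with TNF-α, a log2 ratio of 0.53 (interval 0.50 to 0.56) or 1.44-fold. Psme2 had 3450 and 6347 counts, a ratio of 0.62 (interval 0.56 to 0.68) or 1.54-fold. Their mean lay 0.38 above the median of the 31 core and cap genes. In summed counts the pair exceeded the 20S genes by 0.41 (95% interval 0.38 to 0.44) and the 19S genes by 0.35 (0.32 to 0.38). The sum of the pair is mostly Psme1, and these intervals leave out the spread between genes of a group. Against the highest core gene, Psmb6, the difference was 0.16 for Psme2 (interval 0.06 to 0.27), and for Psme1 it was 0.07 with an interval from -0.02 to 0.17 that included 0. Among the 9345 genes with at least 1000 counts, Psme1 and Psme2 lay at the percentiles 92.0 and 93.7 of the log2 ratio, and Psmb6 lay at 90.3.

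The side of the 1.5-fold threshold on which the pair fell depended on the setting. After removal of a trend with gene length and level, Psme2 stood at 0.58 and no longer passed 1.5-fold. After removal of a trend with GC content, chosen after the data were seen, Psme1 stood at 0.60 and passed it. Psme2 shares 59.3% of the 50-base windows of its main transcript with its copy Psme2b on chromosome 11 and with Gm7928, and with the counts of Psme2b added its ratio was 0.64. Psme1 and its opposite-strand neighbour Emc9 share 14 bases of exon, and 14.1% of the windows of Psme1 occur in other genes.

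**Figure D2:**
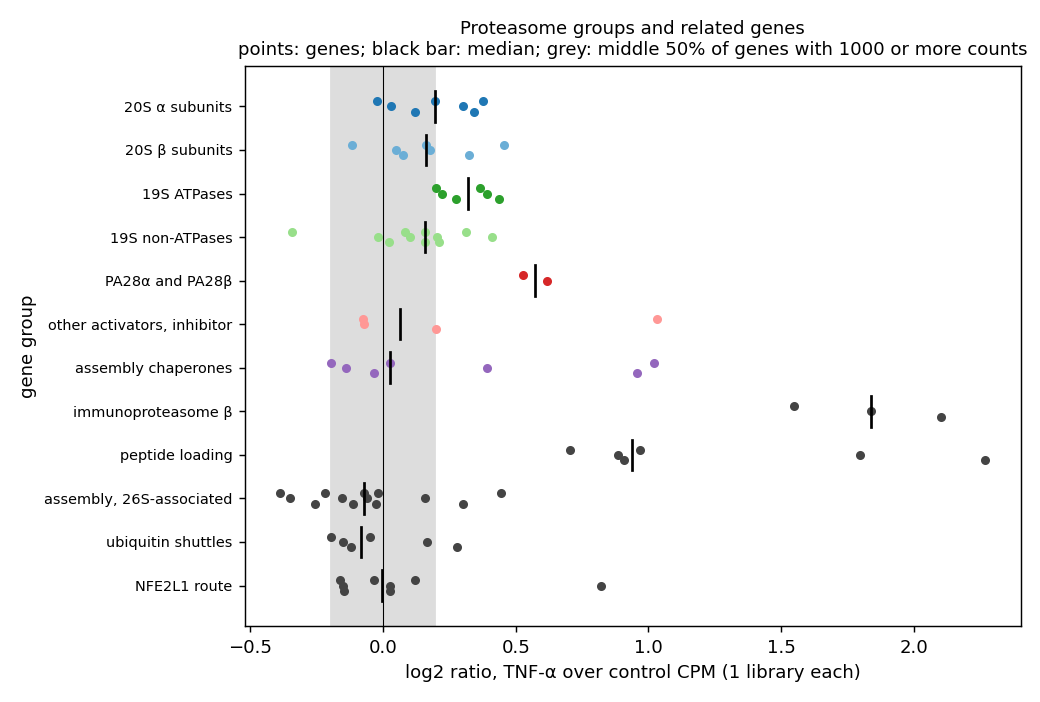
Log2 ratio of TNF-α over control CPM for each gene by proteasome group and for related gene lists, with 1 library per condition. Black bars are medians and the grey band holds the middle 50% of the 9345 genes with at least 1000 counts; the 19S ATPases (median 0.32) and the PA28 pair (0.53 and 0.62) lie to the right of most core genes, and the immunoproteasome genes (1.55 to 2.10) lie farther right.

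Both PA28 genes lie on chromosome 14 of GRCm38, Psme1 on the plus strand from 55578123 to 55581529 and Psme2 on the minus strand from 55587441 to 55591113. Their promoter entries are shown because both genes of the pair were higher. Sequences are from RefSeq (GRCm38.p6), where 39 of the 47 genes had an entry (not Psma8, Psmb1, Psmb2, Psmb7, Psmc3, Psmd3, Psmd7 and Psmg2), and only bases outside annotated exons are printed, 5′ to 3′ on the strand of the gene. The stretch of Psme1 is chr14:55578249-55578359 and lies in an intron within the annotated span of the gene, and that of Psme2 is chr14:55591114-55591351.
Psme1: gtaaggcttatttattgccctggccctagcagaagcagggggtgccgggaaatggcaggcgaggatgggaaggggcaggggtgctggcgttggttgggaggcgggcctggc
Psme2: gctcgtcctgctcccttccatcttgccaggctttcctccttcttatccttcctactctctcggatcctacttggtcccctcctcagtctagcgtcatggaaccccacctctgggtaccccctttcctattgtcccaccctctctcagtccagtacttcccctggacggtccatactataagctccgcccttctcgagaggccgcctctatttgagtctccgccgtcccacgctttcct
In the 250 bases before each start site, 5 motifs were searched on both strands, each on its own, so that matches of different motifs could overlap. They were an ISRE-type element of interferon response (GAAANNGAA), the GAS palindrome (TTCNNNGAA), the κB consensus of NF-κB, the antioxidant response element used by NFE2L1 and NFE2L2 (TGACNNNGC) and the CCAAT box. The windows of Psme1 and Psme2 held 0 matches, and no capitals stand in their sequences. The window of this Psme1 entry lies inside the annotated span, so bases before the annotated start at 55578123 were not in it. The result for Psme1 therefore does not describe the sequence before that start.

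Among the 42 promoter entries of the member genes, 3 (7.14%) held the ISRE-type element, against 7.13% of 32851 entries of all genes. The GAS palindrome was found in 1 entry (2.38%, against 7.02%), that of Psmg1. The antioxidant element was found in 5 entries (11.9%, against 10.2%), of Psmb5, Psmb6, Psmc6, Psmd9 and Psmd12. A κB match was found in 6 (14.3%, against 7.25%), of Psma6, Psma7, Psmd11, Psmd12, Psmd13 and Psme4. The CCAAT box was found in 14 (33.3%, against 33.8%). A match describes the letters only.

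The other activators did not share the ratios of PA28α and PA28β. Psme3, which encodes the nuclear relative PA28γ, had 2225 and 3062 counts, which gave a log2 ratio of 0.20 (interval 0.12 to 0.28). Psme4, which encodes the large activator PA200, had 3899 and 4431 counts and a ratio of -0.08 (interval -0.14 to -0.01). The differences of Psme1 from Psme3 and from Psme4 were 0.33 (interval 0.24 to 0.41) and 0.60 (0.54 to 0.67), and those of Psme2 were 0.42 (0.32 to 0.52) and 0.69 (0.61 to 0.78). Psmf1, the proteasome inhibitor PI31, had 471 and 536 counts, a ratio of -0.07 with an interval from -0.25 to 0.11. Psme2b had 152 and 375 counts and a ratio of 1.03 (interval 0.77 to 1.32). Since 69.3% of its windows occur in Psme2 or another gene, reads from Psme2 could be counted there, and its value is uncertain.

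Among members with under 10% of windows shared with other genes, the largest ratios belonged to a pair of assembly chaperones. Psmg1 had 563 counts in the control and 1371 with TNF-α, a log2 ratio of 1.02 (interval 0.88 to 1.17) or 2.03-fold. Its product works as a dimer with that of Psmg2 in building the α ring, and Psmg2 had 268 and 280 counts and a ratio of -0.20 (interval -0.44 to 0.05). The difference between these partners was 1.22 (95% interval 0.94 to 1.501). Psmg3 and Psmg4, which form the other dimer, had 196 and 239 and 282 and 306 counts, with ratios of 0.03 and -0.14 whose difference of 0.17 had an interval from -0.19 to 0.53. Psmd10, which encodes gankyrin, a chaperone of the cap base also studied as an oncoprotein, had 1319 and 3070 counts, a ratio of 0.96 (interval 0.87 to 1.05) or 1.94-fold. The other cap chaperones were Psmd9 at 0.39 (1233 and 1939 counts) and Psmd5 at -0.03 (2694 and 3149 counts). Psmd10 exceeded Psmd9 by 0.57 (interval 0.43 to 0.70) and Psmd5 by 0.99 (0.87 to 1.11). Thus 1 core chaperone and 1 cap chaperone stood at about 2-fold while the median of the 7 chaperones was 0.03. Psmd9 overlaps the antisense gene Gm26745 over 1849 bases of exon, and Psmg3 overlaps Gm26938.

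The promoters of Psmg1 and Psmd10 are shown as those of the chaperones with the highest ratios. The stretch of Psmg1 is chr16:95990961-95991210 and that of Psmd10 is chrX:140956729-140956906, both on the minus strand of GRCm38.p6 and 5′ to 3′ for the gene. Capitals mark the GAS palindrome of Psmg1, at positions -243 to -235 from the start site, and a pair of CCAAT boxes of Psmd10 in reverse orientation, at -47 to -43 and -24 to -20. The full window of Psmd10 held a further CCAAT match at -230 to -226, outside the printed stretch.
Psmg1: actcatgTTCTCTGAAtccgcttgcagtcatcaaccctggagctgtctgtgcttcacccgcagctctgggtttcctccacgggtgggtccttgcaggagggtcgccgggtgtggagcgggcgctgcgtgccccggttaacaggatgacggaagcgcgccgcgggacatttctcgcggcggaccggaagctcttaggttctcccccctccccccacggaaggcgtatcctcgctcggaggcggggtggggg
Psmd10: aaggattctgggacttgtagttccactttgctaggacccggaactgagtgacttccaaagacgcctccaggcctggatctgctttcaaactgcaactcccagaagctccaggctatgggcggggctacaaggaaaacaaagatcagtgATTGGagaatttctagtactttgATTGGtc

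Psmc3ip, outside the proteasome, had 899 and 1599 counts, which gave a log2 ratio of 0.57 (interval 0.45 to 0.69), and its exons overlap the opposite-strand gene Mlx over 385 bases.

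Levels per length are given in TPM from the deposited counts and exon lengths. PA28 was abundant in the control already. Psme1 stood at 390 TPM in the control and 546 with TNF-α, above every 20S gene in both libraries, and Psme2 stood at 124 and 184 TPM. Psme1 was 3.15 times Psme2 in the control and 2.96 times with TNF-α, although their products assemble in nearly equal number. Psme2 shares 59.3% of its windows with other genes, against 14.1% for Psme1. How reads with several matches were handled is not given, so this quotient is uncertain. The summed TPM of the pair was 0.343 of the summed TPM of the 14 core genes in the control and 0.451 with TNF-α. For the 19S genes this quotient was 2.11 and 2.23.

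**Figure D3:**
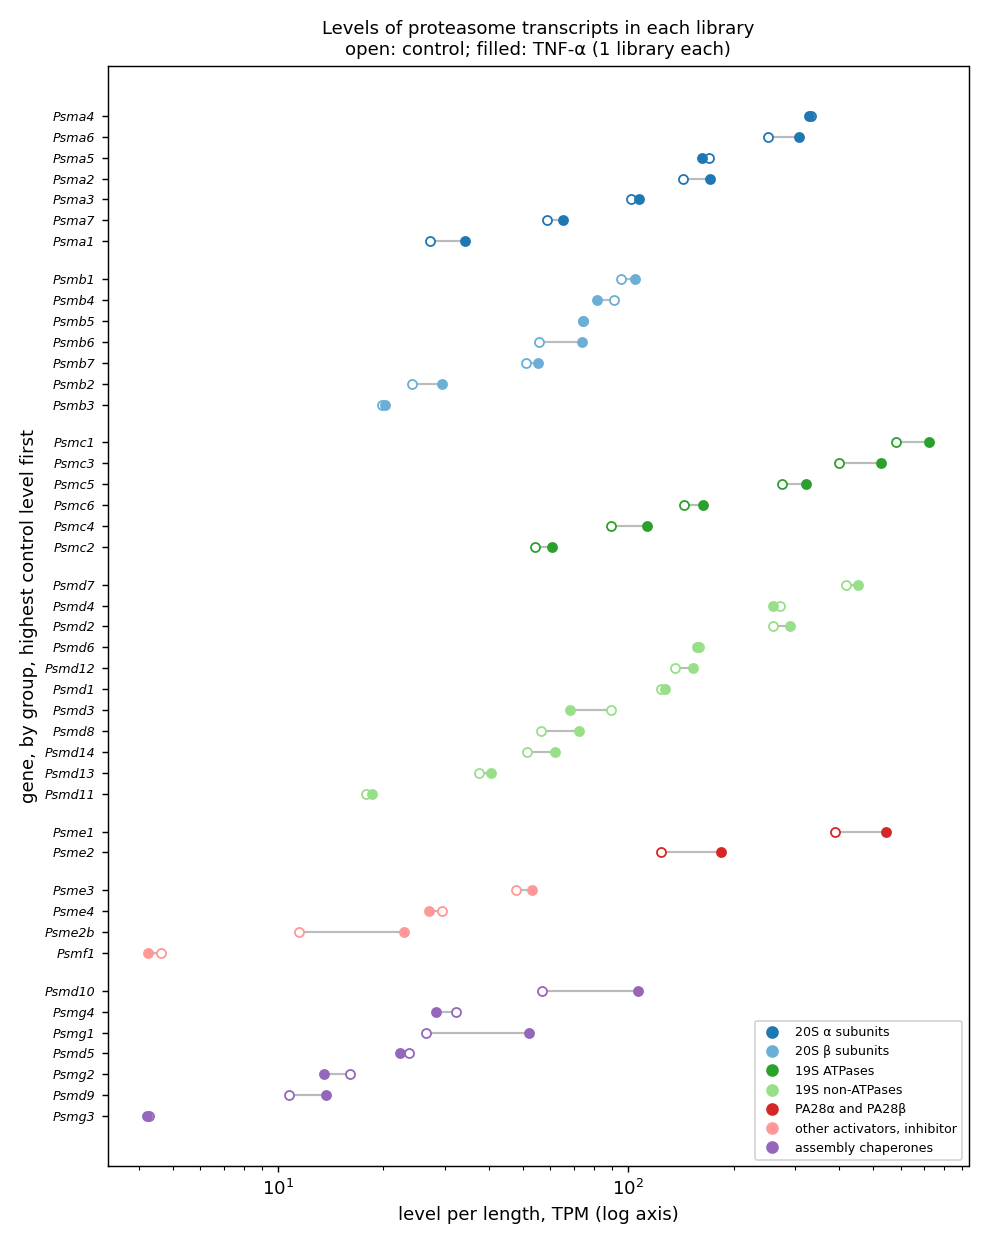
Level per length (TPM, log axis) of each proteasome gene in the control library (open points) and the TNF-α library (filled points), by group. Within the 20S core the levels run from 19.8 TPM for Psmb3 to 333 TPM for Psma4 in the control, and Psme1 moved from 390 to 546 TPM.

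Of the other regulators, Psme3 stood at 47.8 TPM in the control and 53.2 with TNF-α, Psme4 at 29.5 and 27.1, Psme2b at 11.5 and 23.0 and Psmf1 at 4.63 and 4.26. Of the chaperones, Psmg1 went from 26.5 to 52.3 TPM and Psmd10 from 56.9 to 107 TPM, while Psmg2 stood at 16.0 and 13.5 TPM. The partners of the first core chaperone dimer were thus closer in level in the control than with TNF-α. Psmd3 stood at 89.5 and 68.3 TPM, Psmd8 at 56.4 and 72.5, Psmc3 at 401 and 526 and Psmc2 at 54.4 and 60.4. Psma1 stood at 27.2 and 34.2 TPM, Psma5 at 170 and 162, and Psmb4 at 91.4 and 81.6.

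Within the core, control levels ran from 19.8 TPM for Psmb3 to 333 TPM for Psma4, a 16.9-fold range, and with TNF-α the same genes marked the ends at 20.2 and 330 TPM. In the cap, levels ran from 17.9 TPM for Psmd11 to 581 TPM for Psmc1 in the control and from 18.5 to 725 TPM with TNF-α, again with the same genes at the ends. The catalytic genes Psmb5, Psmb6 and Psmb7 stood at 74.3, 55.5 and 51.2 TPM in the control and at 74.5, 73.8 and 55.4 TPM with TNF-α. Their order turned with the length used, since main transcript lengths put Psmb5 lowest of the 3 in the control, at 72.0 TPM against 130 for Psmb6 and 151 for Psmb7. Lengths sum all annotated exons of a gene, so genes with long alternative transcripts have lower TPM. With the length of the main transcript instead, Psma4 stayed the highest core gene, Psmb2 replaced Psmb3 as the lowest, and Psmc3 replaced Psmc1 as the highest cap gene.

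**Figure D4:**
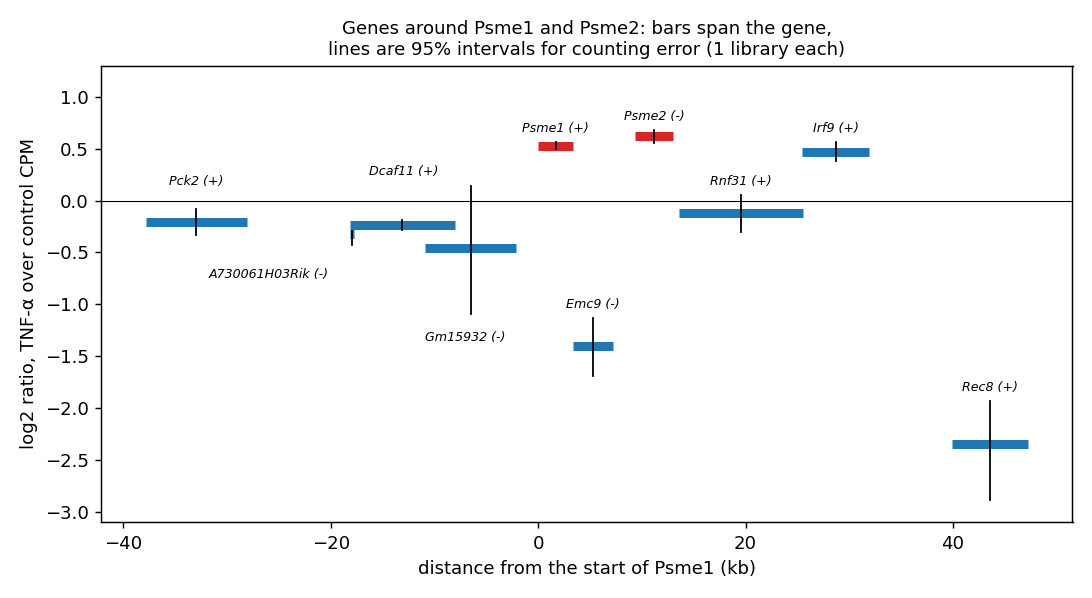
Log2 ratio of TNF-α over control CPM for genes within 30 kb of Psme1 or Psme2 with at least 10 counts, placed by distance in kb from the start of Psme1. Thick bars span each gene and thin lines are 95% intervals for counting error (1 library per condition); Psme1, Psme2 and Irf9 lie above 0, and Emc9 between the PA28 genes lies at -1.40.

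The PA28 genes lie 5911 bases apart, and 10 genes within 30 kb, the pair itself included, reached 10 counts. Of these, 3 had ratios above 0: Psme1, Psme2 and Irf9, which encodes a subunit of the interferon-activated factor ISGF3. Among all genes with at least 10 counts, 50.6% were above 0. Irf9 had 1586 and 2636 counts and a ratio of 0.47 (interval 0.38 to 0.56). Between the PA28 genes lies Emc9, of the membrane protein complex of the endoplasmic reticulum, with 344 counts in the control and 155 with TNF-α, a ratio of -1.40 (interval -1.69 to -1.13). Rnf31, which encodes a subunit of the linear ubiquitin ligase LUBAC of TNF-α signalling, lies next to Psme2 on the other strand and had 513 and 564 counts, a ratio of -0.12 (interval -0.30 to 0.05). Fitm1 had 2 and 0 counts. Dcaf11, A730061H03Rik and Pck2 lay at -0.23, -0.33 and -0.21. Gm15932 lay at -0.45 with only 51 and 44 counts and an interval from -1.09 to 0.14 that included 0. The spans of A730061H03Rik and Gm15932 overlap that of Dcaf11 on the other strand. The strand setting of the counts is not given, so these ratios may not be separate readings. The lowest was Rec8, a meiotic cohesin gene, at -2.35 with 207 and 47 counts. Irf9 was thus the only neighbour of the PA28 pair with a ratio above 0, and the cause of these differences was not tested.

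Genes that act beside the proteasome were described by the same ratio. Of 13 genes for assembly factors and 26S-associated proteins outside the Psm names, 3 were above 0 and 0 passed 1.5-fold in either direction, with a median of -0.07. They ranged from Akirin2 at -0.39, which guides proteasomes into the nucleus, to Shfm1 at 0.44, which encodes a small subunit of the cap lid. Pomp, the maturation factor of the core, had 2281 and 3052 counts and a ratio of 0.16. The cap-associated genes Adrm1, a ubiquitin receptor, and Usp14, a deubiquitinase, stood at -0.26 and -0.02. The small shift to higher values was therefore not seen in this list as a whole.

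Uba1, the main enzyme that activates ubiquitin, had 6738 and 11684 counts and a ratio of 0.53, and the polyubiquitin gene Ubb had 76639 and 110549 counts and a ratio of 0.27. The 6 shuttle genes that carry tagged proteins to the cap ran from -0.20 for Ubqln2 to 0.28 for Ubqln4, with a median of -0.08. In the route of NFE2L1, the factor that drives proteasome genes when the protease is blocked, the median of 8 genes was -0.0028. Nfe2l1 itself had 29219 and 38044 counts, a ratio of 0.12. Ngly1, which removes glycans from NFE2L1, was lowest at -0.16, and the small Maf gene Maff was highest at 0.82 with 539 and 1142 counts.

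The lists of genes tied to interferon and antigen presentation had larger medians than the lists above. All 3 immunoproteasome genes, 6 of 6 peptide loading genes and 3 of 4 interferon regulators passed 1.5-fold upward, where the background share was 15.5%. The medians were 1.84, 0.94 and 1.03. Peptide loading genes ranged from Tapbp at 0.71 to B2m at 2.27, and the regulators from Irf9 at 0.47 to Irf1 at 1.76. Ubd, which encodes the ubiquitin-like modifier FAT10 that targets proteins to the proteasome, had 34 and 2612 counts and a ratio of 5.93 (interval 5.52 to 6.54), while Uba6, which activates FAT10, stood at 0.32. The ratios of Psme1 and Psme2 lay above those of the 31 core and cap genes and below the medians of the immunoproteasome, peptide loading and interferon regulator lists. Single genes did not all keep this order, since Irf9 at 0.47 lay below both PA28 genes. The leukocyte markers had a median log2 ratio of -0.32 over 7 genes, 3 of them above 0. The counting interval of each of these 7 genes included 0. The part of leukocytes in the ratios of this paragraph was not tested.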

How the data were processed

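RNA-seq libraries were made from colonies of sorted mouse mammary basal cells with a SMARTER mRNA kit, per the labels, and sequenced on a HiSeq X 10 according to the study's methods. The series title speaks of a microarray, but the deposited data are sequencing counts. Raw counts of reads were deposited for each gene in 1 table, beside its exon coordinates, strand and summed exon length, in a featureCounts layout. GRCm38 and mm10 are named in the submitters' processing notes, and of 47240 gene names shared with GENCODE M21, 90.85% had the same span there. The aligner, the counting tool, its strand setting and the handling of reads with several matches are not given in the sources used here. Low counts were more often even than odd (2172 genes at 2 and 618 at 1 in the control). The cause was not tested, and intervals from halved counts were computed for a few genes only.

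Scaling of the deposited counts was by TMM (edgeR 4.0.16, R 4.3.3) on the 20771 genes with at least 10 counts summed. Log2 ratios of CPM used a prior count of 2. With 1 library per group no test could be fitted, so a gene was counted as past a threshold by its fold (1.5, or 2) alone. Intervals of single ratios were Clopper-Pearson (95%), and those of differences between ratios were Woolf intervals of the log odds ratio. Intervals and floors (3 counts) cover counting error only, since reads amplified by PCR and lacking molecular identifiers are not independent. TPM was computed from counts and summed exon length. Copies were sought as 50-base windows of the longest principal transcript found in GENCODE M21 transcripts of other genes. Of the members, 13 overlapped exons of another gene and 15 shared over 10% of their windows. Intervals were computed with scipy 1.17.1 and numpy 2.4.6, trends with statsmodels 0.14.6, tables with pandas 2.3.3 and plots with matplotlib 3.10.9 (Python 3.11.15).

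Named genes are the PA28 genes, the other activators, the catalytic subunits, the highest and lowest gene of each group or related list, every member past 1.5-fold, and neighbours within 30 kb of Psme1 or Psme2. Psmb1, Psmb2, Psmb3, Psma4, Psma6, Psmc1, Psmd4, Psmd5, Psmd9, Psmd14, Psmg3, Psmg4, Psmd11, Adrm1, Usp14, Ubb and the single cell type markers were named after their values were seen. The list of ubiquitin genes and activating enzymes is not reported here as a whole, and Uba1 and Ubb are given as single genes. The members and lists were chosen with earlier results of these data known. On simulated data of 20771 genes with counting error only, 200 of 200 genes changed 4-fold passed 1.5-fold and 95.85% of intervals held the true value. The simulated counts were drawn as the intervals assume, so this checks the calculation only. It does not cover the excess of even counts, the spread between cultures or ratios as small as those of most members. Alternatives were other scalings (total counts, DESeq2 1.42.0 size factors, upper quartile), prior counts, filters, thinning, halved counts, removal of trends, and removal of overlapping genes.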

Additional observations from a re-analysis of the deposited data

How the results depend on the processing

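No paired analysis was possible because there was a single library per group, which also meant that none could be left out. Over 14 alternatives the number of members higher past 1.5-fold lay between 2 and 5, and that of members lower stayed at 0. The lowest, 2, came from the 2-fold threshold, which fewer genes can pass. The log2 ratio of Psme1 lay between 0.50 and 0.60 over 11 alternatives, and that of Psme2 between 0.58 and 0.64 over 13. Psme1 left its counting interval under removal of a trend with GC content (0.60), which was chosen after seeing the data, and the cause was not tested. The median of the 20S genes lay between 0.14 and 0.25 and that of the 19S genes between 0.18 and 0.21 over 12 alternatives each. The highest 20S median came with overlapping genes left out, where Psme1 and the difference of the PA28 mean had no value. That difference lay between 0.37 and 0.43 over 11 alternatives. The range of control levels changed from 16.9-fold to 19.99-fold in the core and from 32.5-fold to 16.0-fold in the cap when the main transcript's length was used. The counts were the same in both, and only the length in the calculation differed. Counting error limits rarely counted members such as Psmg3 (196 and 239 counts, interval -0.25 to 0.31) and Psme2b (152 and 375 counts, interval 0.77 to 1.32). With halved counts the interval of Psme1 was 0.49 to 0.57 and that of Psme2 was 0.53 to 0.70.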
